A study of Mus musculus with 45 samples.

Results

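The 10 genes described here are maternal-effect and oocyte genes whose products are laid down in the egg before fertilisation, namely Nlrp5, Tle6, Ooep, Khdc3, Padi6, Npm2, Zar1, Gdf9, Bmp15 and Zp3. They were chosen by name rather than by a threshold on their values, and all 10 were found among the 55401 annotated genes of the RNA-seq tables. The comparisons ask whether mouse embryonic stem cells (mESC) that enter the 2-cell-like state, or that lose the H3K9 methyltransferase EHMT2, express these maternal genes along with the zygotic genes of the 2-cell embryo.

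The series held 45 polyA RNA-seq libraries in 15 groups of 3, all from mESC grown in FBS and LIF on fibroblast feeders. In 3 experiments both endogenous Ehmt2 alleles of KH2 mESC carried a degron with HA tags and an mCherry reporter, so control cells carried the tagged alleles too, and the ligand dTAG-13 (dTAG) depleted the protein while DMSO served as control. The time course compared DMSO and dTAG at 24 h and 7 d, and the washout experiment compared 15 d of DMSO, 15 d of dTAG, and 7 d of dTAG followed by 8 d without it (Recovery). The sorting experiment used clonal MERVL-GFP reporter lines of the degron cells treated for 72 h, from which GFP- cells (mESC) and GFP+ cells (2-cell-like cells, 2CLC) were collected. The Dppa4 experiment compared WTJ1 mESC with mESC lacking Dppa4 (Dppa4 KO), an activator of 2-cell genes, each treated for 48 h with DMSO or with UNC0638, which inhibits the enzymes EHMT1 and EHMT2. For the first 3 experiments the deposited tables held 1 mean of normalized counts per group, so those values carry no error, no n and no test here, and their depth is unknown. The Dppa4 table held every library, with 8399885 to 12710949 gene reads each, and its groups could be tested. The tables were normalized separately, and levels are compared only within a table.

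In the oocyte, NLRP5, TLE6, OOEP, KHDC3 and PADI6 belong to the subcortical maternal complex, a multiprotein assembly at the egg cortex that embryos need to pass the first cleavages. NPM2 is the histone chaperone of the egg nucleus, and ZAR1 is an RNA-binding protein that holds maternal messages in store. GDF9 and BMP15 are growth factors that the oocyte secretes to the follicle, and ZP3 is a glycoprotein of the zona pellucida that surrounds the egg. Maternal transcripts are made during oocyte growth and are degraded as the zygotic genome switches on, and 2CLC are a rare mESC state known for switching on genes and MERVL repeats of that zygotic wave.

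On the mm10 assembly the members lay on 7 autosomes and the X chromosome, with 2 each on chromosomes 5 and 9. Ooep was annotated at chr9:78376109-78378725 on the minus strand and Khdc3 at chr9:73101836-73104438 on the plus strand, and Tle6 lay at chr10:81590904-81601073 on the minus strand. The other members were Nlrp5 at chr7:23385889-23441922, Padi6 at chr4:140727355-140742643, Zar1 at chr5:72576806-72581254, Zp3 at chr5:135980099-135988624, Gdf9 at chr11:53431023-53437904, Npm2 at chr14:70647302-70659244 and Bmp15 at chrX:6314107-6320721. The exons of Khdc3 overlapped those of the same-strand gene Gm20509, and the exons of Npm2 overlapped those of the same-strand gene Xpo7, so reads from the shared exons could not be assigned to either gene with certainty.

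RefSeq promoter windows of 300 bases (250 before to 50 after the start, GRCm38.p6) were matched for 8 of the 10 members. Those of the 3 members that mESC expressed, Ooep, Khdc3 and Tle6, and of Zar1, which was at or near 0 throughout, are shown to compare their CpG content. The sequences run 5′ to 3′ on the gene's own strand, and capitals mark CpG dinucleotides.
Ooep, chr9:78378539-78378838, minus strand: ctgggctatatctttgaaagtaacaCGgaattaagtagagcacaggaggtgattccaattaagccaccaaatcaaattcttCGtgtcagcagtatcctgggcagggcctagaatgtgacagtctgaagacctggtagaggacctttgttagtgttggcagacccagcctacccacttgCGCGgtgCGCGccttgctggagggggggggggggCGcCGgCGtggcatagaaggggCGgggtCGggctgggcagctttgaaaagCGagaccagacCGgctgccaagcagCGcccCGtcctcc
Khdc3, chr9:73102148-73102447, plus strand: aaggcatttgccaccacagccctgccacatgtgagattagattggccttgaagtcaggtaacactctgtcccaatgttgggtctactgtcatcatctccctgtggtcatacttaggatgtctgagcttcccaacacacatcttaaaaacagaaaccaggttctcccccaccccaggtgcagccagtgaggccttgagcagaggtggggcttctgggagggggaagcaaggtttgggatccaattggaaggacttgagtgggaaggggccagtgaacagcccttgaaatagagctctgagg
Tle6, chr10:81600851-81601150, minus strand: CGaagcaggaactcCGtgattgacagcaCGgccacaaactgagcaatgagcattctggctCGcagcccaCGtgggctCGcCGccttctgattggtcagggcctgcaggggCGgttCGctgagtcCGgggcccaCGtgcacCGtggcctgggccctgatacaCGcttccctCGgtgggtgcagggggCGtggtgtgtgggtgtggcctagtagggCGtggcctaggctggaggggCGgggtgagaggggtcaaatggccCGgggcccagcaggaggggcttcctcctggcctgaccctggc
Zar1, chr5:72581035-72581334, minus strand: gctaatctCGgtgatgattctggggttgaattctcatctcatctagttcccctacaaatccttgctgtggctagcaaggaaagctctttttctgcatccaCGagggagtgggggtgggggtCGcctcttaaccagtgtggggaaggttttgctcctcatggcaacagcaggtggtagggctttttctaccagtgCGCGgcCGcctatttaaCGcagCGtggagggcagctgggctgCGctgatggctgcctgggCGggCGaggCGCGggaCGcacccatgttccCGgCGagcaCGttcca
The Ooep window held 15 CpG, the Tle6 window 18 and the Zar1 window 17, whereas the Khdc3 window held 0, against a median of 7 over 32851 promoter windows. Among these 4 windows Zar1 was as CpG-rich as Ooep, and Khdc3 had none. The windows not shown held 2 CpG for Padi6, 2 for Bmp15, 7 for Zp3, and 1 and 9 for Nlrp5. A second Tle6 window held 3. The Khdc3 window began inside the annotated gene, which starts at chr9:73101836, so its count depends on the start chosen. A relation of CpG content to expression was not tested. Both strands were also searched for CANNTG, the E-box that oocyte factors of the FIGLA and SOHLH type bind, for its form CACGTG, which is itself a CANNTG match, and for TAATTG, a homeodomain motif. CACGTG occurred in 7.15% of all windows, and among the windows shown only the Tle6 window held it, at 2 places starting 183 and 119 bases before the start. Of the windows not shown, that of Zp3 held it at 1 place, starting 181 bases before the start. CANNTG occurred in 72.3% of all windows and in each of these 4, with 5 matches in the Khdc3 window. TAATTG occurred in 8% of all windows, once in the Ooep window and once in that of Padi6, not shown. The motif TCCCGC was searched as well. It occurred in 20% of all windows, once each in those of Zar1 and Zp3, and once in the Nlrp5 window with 9 CpG.

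Only 3 of the 10 members had a mean of at least 5 normalized counts in all 11 groups of the degron experiments, and they were Ooep, Khdc3 and Tle6. The remaining 7 peaked at 17.9 (Gdf9 in dTAG at 24 h). In control mESC of the time course at 24 h, the mean per kb of exon was 359.9 for Ooep, 114 for Khdc3 and 34.2 for Tle6, and at most 5.79 for any other member. In sorted control mESC the order of the top pair was the opposite, with 156 per kb for Khdc3 and 95.1 for Ooep. Thus mESC carried transcripts of 3 subcortical complex genes, while Nlrp5 and Padi6, which encode other subunits of the same complex, were at 0 and 1.42 normalized counts in DMSO at 24 h. Nlrp5 was listed at 0 in 8 of the 11 groups and reached 1.57, and Zar1 was listed at 0 in 6 and reached 1.79.

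**Figure D1:**
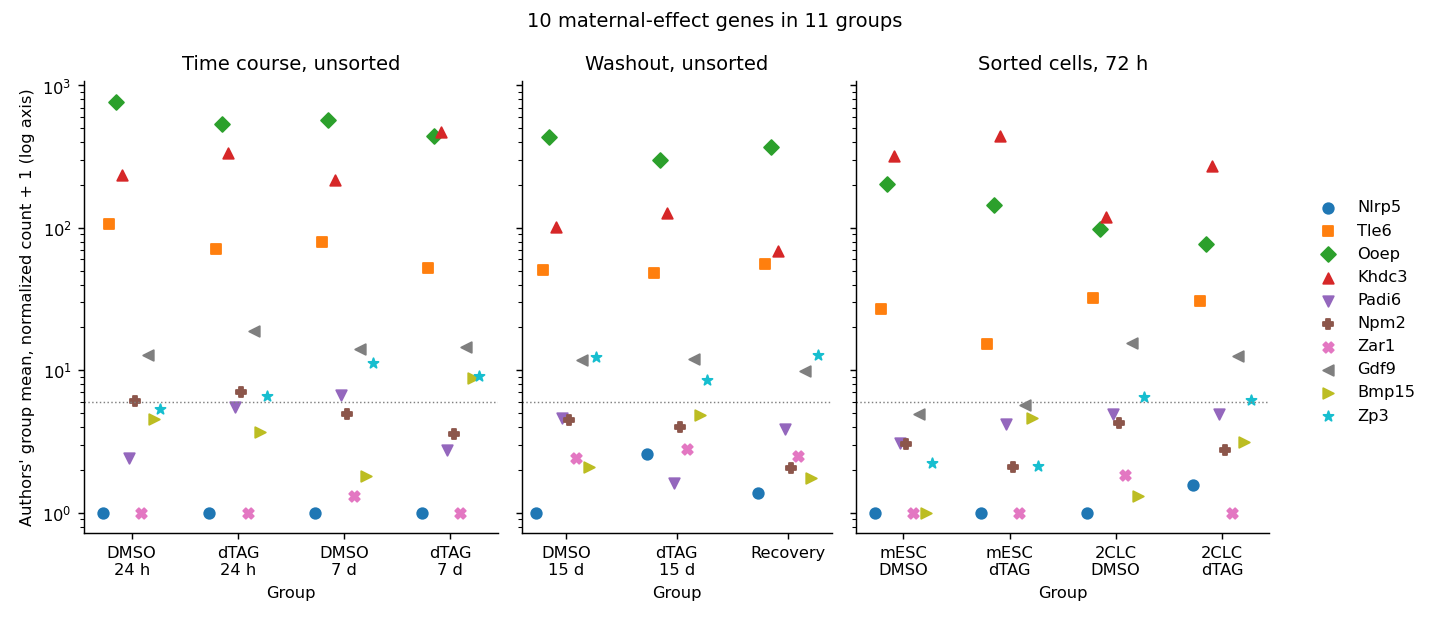
Authors' group means of the 10 members, as normalized count + 1 on a log axis, in the 11 groups of the time course, washout and sorting experiments; each point is 1 gene in 1 group and the dotted line marks a mean of 5. Ooep, Khdc3 and Tle6 sit above the line in every group, and the other 7 members stay at or below 17.9.

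In 2CLC, the zygotic genes were far higher than in mESC and the maternal members were not. For the sorted cells, genes whose 2 means averaged at least 5 were compared by the log2 ratio of means, with 1 added to each, and a ratio of at least 2-fold was counted. Of 20 genes chosen as markers of zygotic activation in the 2-cell embryo, 19 were past 2-fold higher in 2CLC in DMSO and 0 lower, with a median log2 ratio of 7.35. Of the 20, 14 had a mean of at least 5 in mESC. The rest reached the level only through the 2CLC group, so they could pass only with a higher 2CLC mean. The cells were also sorted on a MERVL reporter of this state, so the list count is a description. Most of the 20 belong to the Zscan4, Usp17l, Tcstv and Tdpoz families. Multimapping reads were placed at 1 random location, so the genes of a family are not independent in this or later counts. The 4 members that reached this level had a median of -0.40, against -0.01 over all genes. Only Gdf9 was past 2-fold higher, and Ooep and Khdc3 were past 2-fold lower. Over all genes 16.8% were past 2-fold higher and 9.24% lower, so with 4 members these counts set nothing apart from the transcriptome as a whole.

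Khdc3, a KH-domain protein that in mESC is also known for its part in genome stability, had a mean of 319 normalized counts in mESC and 118 in 2CLC in DMSO, a log2 ratio of -1.43. Only 3.85% of genes had a ratio as low or lower. Ooep, another KH-domain subunit of the complex, had 203 in mESC and 97.9 in 2CLC, a log2 ratio of -1.05 with 8.43% of genes at or below it, which lay just short of 2-fold (-0.997) after rescaling by median ratio. These 2 were thus lower in the 2CLC means, and the third member expressed in mESC was not. Tle6, a member of the Groucho/TLE family, had 26.1 and 31.0, a log2 ratio of 0.24. Gdf9 had 3.95 in mESC and 14.5 in 2CLC, a log2 ratio of 1.64, with 11.4% of genes at or above it. It reached the required level only through the 2CLC group, so it could pass only with a higher 2CLC mean, and its call is a description.

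The same members were read in dTAG, in which EHMT2 was depleted in both populations. Khdc3 had 444 in mESC and 272 in 2CLC, a log2 ratio of -0.71, and Ooep had 145 and 76.1, a log2 ratio of -0.92. Both were lower in 2CLC under either treatment, although in dTAG neither passed 2-fold. Tle6 had 14.3 and 29.7, a log2 ratio of 1.01 that lay at the threshold, and Gdf9 had 4.70 and 11.7, a log2 ratio of 1.15. Gdf9 again reached the required level only through the 2CLC group, so its call is a description. Hence 2 of 4 members were past 2-fold higher and 0 lower, beside 15.7% of all genes higher and 7.66% lower, and the median of the members was 0.15. The 2-cell list again gave 19 of 20 higher, with a median of 4.67.

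The remaining 6 members stayed low in both sorted populations. Zp3 had means of 1.23 in mESC and 5.47 in 2CLC in DMSO, and 1.12 and 5.18 in dTAG, so it was higher in 2CLC in both treatments, at levels below the one required. Npm2 had 2.01 and 3.29 in DMSO and 1.11 and 1.77 in dTAG, and Padi6 had 2.06 and 3.92 in DMSO and 3.17 and 3.94 in dTAG. These pairs all lay under 5, where the number of reads behind a mean is not known. Bmp15 had 0 and 0.312 in DMSO and 3.61 and 2.11 in dTAG, Zar1 had 0.826 in 2CLC in DMSO and was listed at 0 in the other 3 sorted groups, and Nlrp5 had 0.554 in 2CLC in dTAG and was listed at 0 in the other 3. In contrast, Zfp352, a zinc-finger gene of the 2-cell embryo, had 2.72 in mESC and 1928 in 2CLC in DMSO, Tcstv3 had 3.89 and 1349, and Tdpoz4 had 0.775 and 578.

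**Figure D2:**
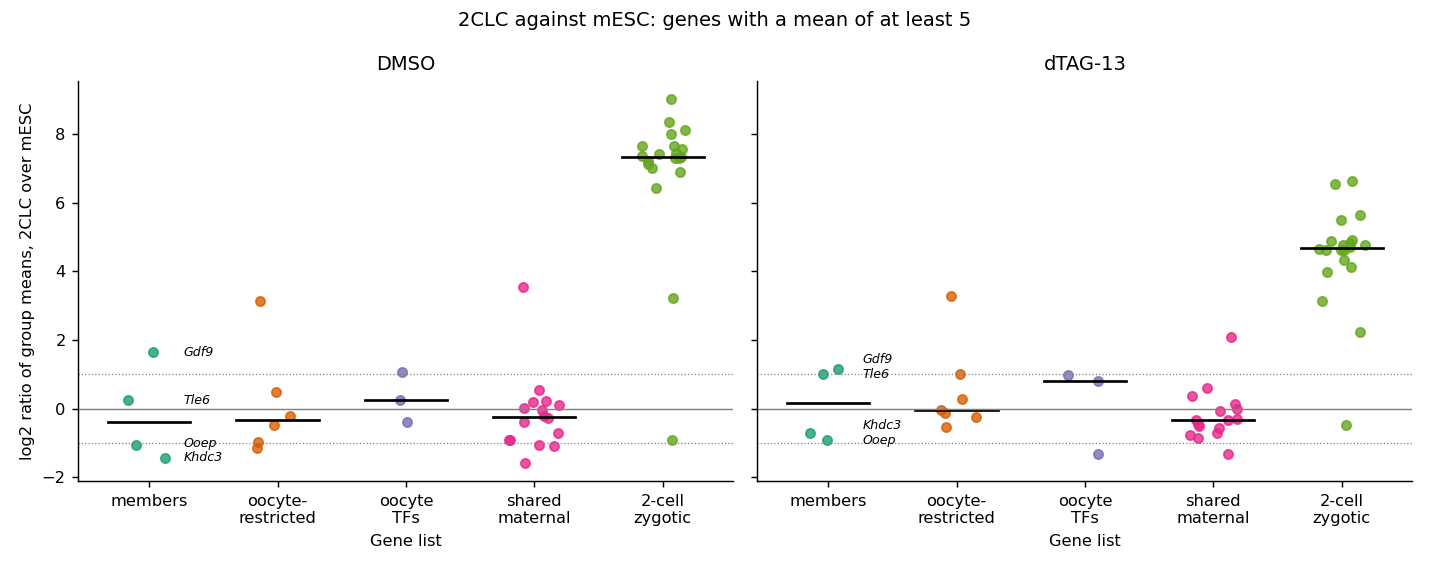
Log2 ratio of group means in 2CLC over mESC for the members and 4 other gene lists, in DMSO (left) and dTAG-13 (right); each point is 1 gene whose means averaged at least 5, black bars are list medians and dotted lines mark 2-fold. The 2-cell zygotic genes have medians of 7.35 and 4.67, while the members lie on both sides of 0 with medians of -0.40 and 0.15.

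The sorted comparisons depended on the scaling. When each group was rescaled to an equal total over genes, the median of all genes moved from -0.01 to -0.17 in DMSO and from -0.04 to -0.44 in dTAG. The split of genes past 2-fold higher and lower went from 3284 and 1811 to 2918 and 2442 in DMSO, and from 3080 and 1507 to 2295 and 3657 in dTAG. Under that scaling in dTAG, Ooep was at -1.32 and Khdc3 at -1.11, so both were past 2-fold lower, and Tle6 was at 0.62 and Gdf9 at 0.80. The directions of these 4 members were thus the same under either scaling in dTAG, while the calls of past 2-fold were not. The sum of feeder markers moved with the sort as well. The summed means of 8 fibroblast genes were 407 in mESC and 970 in 2CLC in DMSO, and 722 and 1641 in dTAG. In 2CLC, 2 of 6 and 4 of 6 measured markers were past 2-fold higher, beside 16.8% and 15.7% of all genes. At most 1 of the 8 was listed at 0 in a sorted group. In DMSO the largest difference was that of Thy1, with 144 in mESC and 561 in 2CLC. Col3a1 had 11.2 and 23.5, Col1a1 78.6 and 144, Col1a2 91.8 and 166, and Postn 11.9 and 17.9. Pdgfrb went the other way in DMSO, with 68.7 and 55.3, and so did Dcn, at means under 5. The markers thus did not all rise in 2CLC in DMSO. The part of feeder cells in the members' values was not tested. In bulk populations such as these, fewer expressing cells and less RNA per cell cannot be told apart.

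To learn whether other egg genes appeared in 2CLC, lists beyond the 10 members were read in the same way. Among 30 further genes listed as largely restricted to oocytes, 6 reached the level in the sorted DMSO cells, of which 1 was past 2-fold higher, 1 lower, and the median was -0.35. Over all genes 16.8% were past 2-fold higher and 9.24% lower. Not all of the list is restricted in practice, since Kit had 2009.5 in control mESC of the time course at 24 h. The one past 2-fold higher was Nlrp4c, a maternal NLRP gene, with 12.6 in mESC and 119 in 2CLC (log2 ratio 3.14), and the one lower was Gpr3, the receptor that holds oocytes in meiotic arrest, with 12.2 and 4.89 (-1.16). Ybx2, which encodes a germ-cell protein that binds stored messages, had 168 and 86.0 (-0.96). Of 8 oocyte transcription factors 3 reached the level, and Taf4b, a TFIID subunit, was past 2-fold higher with 324 and 676 (1.06), beside Sohlh2 with 567 and 434 (-0.38) and Gsc with 35.6 and 42.1 (0.24). The genes of these 2 lists therefore showed no common direction in these means.

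A list of 16 maternal-effect genes that mESC also express gave 1 past 2-fold higher and 3 lower in DMSO, with a median of -0.25. Over all genes the shares were 16.8% and 9.24%. Dppa3, whose product guards the maternal genome against demethylation, had 10.4 in mESC and 132 in 2CLC (3.54). Sox2 had 11238 and 3736 (-1.59) and Tcl1, a cofactor of AKT signalling, had 692 and 327 (-1.08). Pluripotency markers had a median of -1.09, with 4 of 8 past 2-fold lower, among them Klf4 (3921 and 1257) and Tfcp2l1 (7777 and 3074). Nanog was on the other side, with 6350 and 8924, and Tdgf1 had 10127 and 8522. Lower means in 2CLC were thus shared by Ooep, Khdc3 and only part of the mESC programme. Markers of follicle cells had no common direction: Inha had 52.1 and 12.4, Foxl2 5.09 and 10.1, and Amh 7.88 and 6.45. Germ-cell markers gave 2 of 6 past 2-fold higher, namely Dazl (132 and 961) and Mael (11.4 and 94.7), while Tex14 had 196 and 131.

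After EHMT2 depletion in unsorted mESC the zygotic list had higher means at each time, and the measured members were within 2-fold of their controls apart from Khdc3 at 7 d. At 24 h, 15 of 17 measured 2-cell genes were past 2-fold higher, with a median of 3.31, and 0 of 5 measured members were past 2-fold in either direction, beside 3.74% of all genes higher and 2.32% lower. At 7 d the 2-cell list gave 19 of 20 (median 4.33) and the members gave 1 higher, Khdc3, and 0 lower of 5, beside 5.46% and 4.67%. At 15 d the 2-cell list gave 18 of 20 (median 4.56) and the members 0 of 5 in either direction, beside 5.61% higher and 0.934% lower. The DMSO means of 14, 15 and 16 of the 20 2-cell genes were at least 5 at 24 h, 7 d and 15 d. The other measured 2-cell genes reached the level only through dTAG. In sorted mESC 0 of 3 members were past 2-fold, beside 6.03% higher and 2.75% lower, and in sorted 2CLC 1 of 5 was higher, again Khdc3, beside 5.99% and 3.49%. Shares of 1 in 5 rest on a single gene and are not set against the background.

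Khdc3 had a higher mean in dTAG than in DMSO in all 5 comparisons, 2 of which passed 2-fold. The means were 233 and 333 in DMSO and dTAG at 24 h, 217 and 470.0 at 7 d, and 99.8 and 127 at 15 d. They were 319 and 444 in sorted mESC and 118 and 272 in sorted 2CLC. The log2 ratio was largest in 2CLC, at 1.20, and at 7 d, at 1.11, where 4.23% and 4.81% of genes had a ratio as high or higher. After rescaling to equal gene totals the 2CLC ratio was 0.96, below 2-fold, with the split over all genes moving from 1198 higher and 698 lower to 797 and 1293 and the median from 0.00 to -0.24. Gm20509, whose exons Khdc3 shares, had 108 and 201 at 7 d and 74.6 and 158 in 2CLC, in the same direction as Khdc3.

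Ooep went the other way, with a lower mean in dTAG in all 5 comparisons and never past 2-fold. It had 769 and 536 in DMSO and dTAG at 24 h, 575 and 438 at 7 d, and 431 and 298 at 15 d. In the sorted cells it had 203 and 145 in mESC and 97.9 and 76.1 in 2CLC. The log2 ratios spanned -0.53 to -0.36. At 15 d 4.89% of genes had a ratio as low as or lower than that of Ooep, and at 24 h 9.66%. Controls of different times differed by a similar amount, since Ooep in DMSO had a log2 ratio of -0.42 at 7 d over 24 h.

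Tle6 was also lower in dTAG in each comparison, with log2 ratios from -0.83 to -0.06, except that the ratio at 15 d was 0.0025 when groups were rescaled to equal gene totals. Its means were 106 and 70.2 at 24 h, 78.7 and 51.7 at 7 d, and 49.3 and 47.1 at 15 d. In sorted mESC the pair was 26.1 and 14.3, and in sorted 2CLC 31.0 and 29.7. As with Ooep, the controls themselves stood apart by -0.42 between 24 h and 7 d. Within the subcortical complex, the 3 expressed genes therefore did not move as one: Khdc3 means were higher without EHMT2 and those of Ooep, and of Tle6 except at 15 d under that scaling, were lower.

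**Figure D3:**
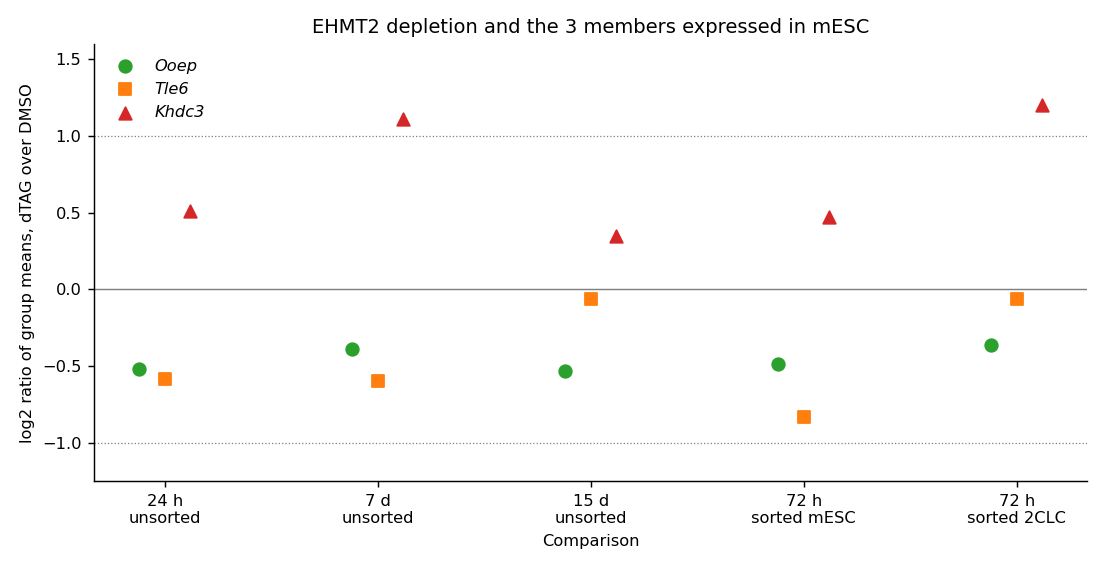
Log2 ratio of group means, dTAG over DMSO, for Ooep, Tle6 and Khdc3 in the 5 comparisons of EHMT2 depletion; each point is a ratio of 2 group means with no error and dotted lines mark 2-fold. Khdc3 lies above 0 in all 5 (up to 1.20) and Ooep and Tle6 lie below 0 in all 5 (down to -0.83), with Tle6 at 15 d moving to 0.0025 under equal gene totals.

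The growth factors and the zona gene stayed low after depletion. Gdf9 had 11.8 and 17.9 in DMSO and dTAG at 24 h, 13.1 and 13.5 at 7 d and 10.8 and 11.0 at 15 d. Zp3 had 4.38 and 5.61, 10.2 and 8.09, and 11.3 and 7.52 at the same times. Neither was past 2-fold with dTAG at any time. Bmp15 had 0.813 and 7.85 at 7 d and 1.09 and 3.83 at 15 d, and its pairs averaged under the level required at all 3 times. Padi6 had 1.42 and 4.53, 5.74 and 1.76, and 3.65 and 0.609, so its order turned between 24 h and 7 d, and Npm2 had 5.11 and 6.05, 3.91 and 2.56, and 3.47 and 2.97. Nlrp5 was listed at 0 in all 4 time-course groups and had 1.57 in dTAG at 15 d, and Zar1 had at most 1.79.

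After washout the zygotic list had lower means again, and the measured members were within 2-fold of both other groups. In Recovery against 15 d of dTAG, 18 of 20 2-cell genes were past 2-fold lower, with a median of -3.97, whereas 0 of 5 members were past 2-fold, beside 1.54% of all genes higher and 7.05% lower. Of the 20, 17 had a mean of at least 5 in Recovery, and the rest reached the level only through dTAG. Khdc3 had 127 in dTAG and 68.0 in Recovery (log2 ratio -0.89), below the 99.8 of the DMSO control. Ooep had 298 in dTAG, 366 in Recovery and 431 in DMSO, and so lay between the other 2 groups after washout. Tle6 had 47.1, 54.7 and 49.3. Against DMSO, Recovery again gave 0 of 5 members past 2-fold, beside 1.81% higher and 1.32% lower. Feeder genes summed to 3479 in dTAG at 15 d, 1042 in Recovery and 2595 in DMSO, and their part in these values was not tested.

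The DMSO controls at 7 d and 24 h gave 1 of 5 members past 2-fold, beside 0.996% of all genes higher and 1.67% lower. It was Zp3, with 4.38 at 24 h and 10.2 at 7 d, a log2 ratio of 1.06, which reached the required level only through the 7 d group. The control means of Zp3 thus differed more between times than the dTAG and DMSO means did at 7 d or 15 d.

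Of the wider oocyte list, NLRP genes differed among themselves after EHMT2 depletion. Nlrp14, a maternal NLRP gene related to Nlrp5, had 24.8 and 85.0 in DMSO and dTAG at 24 h (log2 ratio 1.74), 21.1 and 132.6 at 7 d (2.59), and 41.0 and 185.7 at 15 d (2.15). Nlrp4c had 11.3 and 39.2 (1.71), 6.79 and 135 (4.12), and 27.5 and 241 (3.09). Both were past 2-fold at every time. Nlrp4f, with higher means than either in DMSO, had 238 and 307, 282 and 488, and 275 and 231, never past 2-fold and lower in dTAG at 15 d. Nlrp9b had 3.44 and 6.90, 7.65 and 5.12, and 8.94 and 6.51. The same list also held genes on the other side, such as Ybx2 with 573 and 244 at 24 h (-1.23) and 434 and 153 at 7 d (-1.50). In all, 2 of 8 measured oocyte-restricted genes were past 2-fold higher and 1 lower at 24 h, 2 and 3 at 7 d, and 2 and 0 at 15 d. Over all genes the shares higher and lower were 3.74% and 2.32%, 5.46% and 4.67%, and 5.61% and 0.934% at these times. Sohlh2, an oocyte and germ-cell transcription factor, had 306 and 382, 199 and 332, and 214 and 557 at the 3 times, and was past 2-fold at 15 d (1.38).

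The Dppa4 experiment allowed the members to be tested against the spread between libraries. Dppa4 itself, the targeted gene, had 602, 706 and 1053 reads in WT DMSO, 825, 829 and 967 in WT UNC0638, and 0 in all 6 KO libraries. Replicate 3 of both WT groups stood apart, with 2-cell genes summing to 3461 normalized counts in DMSO, against 963 and 1546 in the others, and to 10988 in UNC0638, against 2008 and 2650. Replicate 3 of KO UNC0638 differed most from its own group. P-values here measure the spread between libraries, which the labels give as 3 independent clones. Khdc3 (7096 reads over the 12 libraries), Ooep (5766), Tle6 (290) and Zp3 (183) passed the expression filter. Gdf9 (44 reads), Bmp15 (22), Npm2 (7), Zar1 (3), Nlrp5 (2) and Padi6 (2) did not, and a count of 0 in a library allows up to 3 reads, which is 2.40 to 3.69 normalized counts, by counting error alone.

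By limma over 17258 genes, with a call at an adjusted p under 0.05 and at least 2-fold, UNC0638 changed 0 of the 4 tested members in WT and 0 in Dppa4 KO. At an unadjusted p under 0.05 the count was also 0 of 4 in both, and edgeR and DESeq2 called 0. The background was 0% higher and 0% lower in WT, and 0.411% higher and 0.0521% lower in KO, so with no gene called in WT the contrast could set no gene apart there (1504 genes had an unadjusted p under 0.05, edgeR called 0 and DESeq2 called 13 higher and 1 lower). Dppa4 KO against WT called 0 of 4 members in DMSO, beside 1.33% of genes higher and 3.1% lower, and 0 of 4 in UNC0638, beside 0.973% and 2.31%. There 1 and 2 members had an unadjusted p under 0.05, edgeR called 0 in both, and DESeq2 called 0 and 1. Tested as an interaction, the effect of UNC0638 differed between genotypes for 0 of 4 members, beside 0% and 0% of genes (0 members with an unadjusted p under 0.05, 1076 such genes, and 0 calls by edgeR and DESeq2).

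Ooep had 545, 353 and 360.1 normalized counts in the WT DMSO libraries and 437, 269 and 273 in WT UNC0638. The values of the 2 groups overlapped, and UNC0638 was lower in 3 of 3 same-numbered pairs, with a log2 fold change of -0.37 (SE 0.23, limma adjusted p = 0.59, and 0.392 with the replicate number as a block within genotype). In Dppa4 KO it had 657, 595 and 604 in DMSO and 538, 416 and 634 in UNC0638, which also overlapped (-0.24, adjusted p = 0.66). Every KO DMSO library lay above every WT DMSO library, with means of 618 ± 33.3 and 419 ± 109 (SD, n = 3 each). The difference of 0.59 (SE 0.23) missed the threshold after adjustment in limma (adjusted p = 0.13), and in UNC0638 it was 0.71 (SE 0.23, limma adjusted p = 0.089) with overlapping values. Over all settings of limma, edgeR and DESeq2 the adjusted p in UNC0638 ranged from 0.0322 to 0.296. The log2 fold change there ran from 0.57 to 0.94, so it stayed under 2-fold.

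Khdc3 varied more between libraries of a group. It had 607, 513 and 246 in WT DMSO and 460.5, 387 and 161 in WT UNC0638, with the lowest value of each group in the replicate 3 library in which 2-cell genes were highest. Here too UNC0638 was lower in 3 of 3 pairs, at -0.47 in WT (SE 0.40, limma adjusted p = 0.69, and 0.394 with that block) and -0.07 in KO (limma adjusted p = 0.96), so the higher mean seen with dTAG at 7 d had no counterpart past the spread after 48 h of the inhibitor. Dose, agent, line and time all differ between these experiments, and the 2 values are only set side by side. In Dppa4 KO it had 563, 1081 and 734 in DMSO and 486, 711 and 1118 in UNC0638. All KO UNC0638 libraries lay above all WT UNC0638 libraries, with means of 771 ± 320.3 and 336 ± 156 (SD, n = 3 each), a difference of 1.25 (SE 0.40, limma adjusted p = 0.088). DESeq2 on the recovered reads called this difference at 1.18 (adjusted p = 0.0345), and over all settings the adjusted p ranged from 0.0345 to 0.313.

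For Tle6 and Zp3 no difference was detectable at this depth and spread. Tle6 had 14.0, 24.6 and 33.2 in WT DMSO, 22.0, 11.2 and 24.0 in WT UNC0638, 32.3, 23.4 and 19.7 in KO DMSO, and 10.1, 31.2 and 34.9 in KO UNC0638. Zp3 had 12.8, 9.84 and 36.7 in WT DMSO, 9.69, 6.54 and 18.4 in WT UNC0638, 1.96, 19.4 and 22.1 in KO DMSO, and 1.84, 25.8 and 13.1 in KO UNC0638. Values of all 4 groups overlapped for both genes, and the log2 fold changes in WT were -0.30 (SE 0.53) for Tle6 and -0.62 (SE 0.90) for Zp3. Gdf9, which did not pass the filter, had 4, 5 and 2 reads in WT DMSO, 0, 2 and 8 in WT UNC0638, 1, 2 and 10 in KO DMSO, and 0, 0 and 10 in KO UNC0638. Its replicate 3 libraries thus held most of the reads in 3 of the 4 groups. Bmp15 had reads in 4 libraries, with 7 and 5 in WT UNC0638, 6 in KO DMSO and 4 in KO UNC0638.

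**Figure D4:**
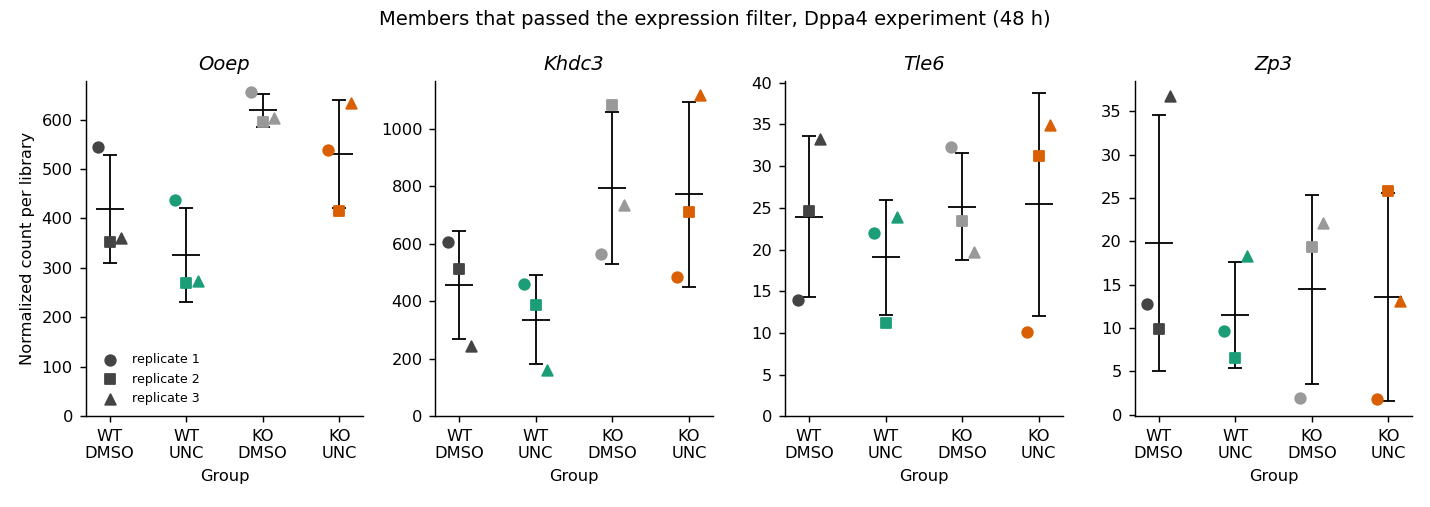
Normalized counts of Ooep, Khdc3, Tle6 and Zp3 in the 12 libraries of the Dppa4 experiment; each point is a library, with its replicate number shown by the marker, and bars give the mean ± SD of 3 libraries. Ooep in KO DMSO (595 to 657) lies above WT DMSO (353 to 545), and Khdc3 in KO UNC0638 (486 to 1118) above WT UNC0638 (161 to 460.5).

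The zygotic list differed from the members in this experiment too. Of 15 tested 2-cell genes, 9 fell and 1, Zfp750, rose in Dppa4 KO against WT in DMSO, beside 3.1% and 1.33% of all genes. In UNC0638 13 fell, beside 2.31%. Those lower in both treatments were Zscan4a to Zscan4f, Usp17lb, Usp17lc and Usp17le, and Usp17la, Usp17ld, Tdpoz3 and Zfp352 were called in UNC0638 alone. Without the replicate 3 libraries of WT the counts of genes that fell were 8 and 9: Usp17lc was lost in DMSO (adjusted p = 0.0717) and those 4 were lost in UNC0638 (0.0564, 0.0559, 0.145 and 0.128). The calls of Tdpoz3 and Zfp352 were also lost without any other single library of the 2 UNC0638 groups (adjusted p up to 0.116 for Tdpoz3 and 0.0963 for Zfp352), Zfp352 was not called by DESeq2 (0.164) or with a pseudocount of 0.5 (0.0570), and Usp17lc in DMSO and Usp17ld in UNC0638 were lost without replicate 2 of the WT group (0.0557 and 0.0502). Over all settings of limma, edgeR and DESeq2, those 2 calls were lost in 3 settings each (adjusted p up to 0.0717 and 0.0665). The call of Usp17la in UNC0638 was lost in 2 (up to 0.0607), and that of Zscan4a in 1 under each treatment. The call of Zfp750 was lost without WT DMSO replicate 3 (adjusted p = 0.0566), without KO DMSO replicate 1 (0.0576) and without both replicate 3 libraries of WT (0.0821). Zscan4c had 31.4, 107 and 622 in WT DMSO, 188, 221 and 1856 in WT UNC0638, and 0 in all KO libraries. It was at least 80.3-fold lower in KO in DMSO and at least 263-fold lower in UNC0638, taking 3 reads per library as the floor, and without WT replicate 3 the bounds were 21.9-fold and 71.3-fold. Against this, Ooep and Khdc3 had KO means above the WT means under both treatments. Limma called neither, and DESeq2 called Khdc3 in UNC0638.

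Among other oocyte genes, 2 of 10 tested oocyte-restricted genes rose with UNC0638 in Dppa4 KO by limma, beside 0.411% of all genes. There 4 of the 10 had an unadjusted p under 0.05, edgeR called 2 and DESeq2 called 3. In WT limma called 0 of 10, where 3 had an unadjusted p under 0.05, edgeR called 0 and DESeq2 called 2. Nlrp14 had 0 reads in the 3 KO DMSO libraries and 20.2, 57.0 and 20.1 normalized counts in KO UNC0638, at least 10.3-fold higher (limma adjusted p = 0.00185), or at least 6.38-fold without KO UNC0638 replicate 2. In WT it had 14.0, 14.8 and 6.12 in DMSO and 93.3, 65.4 and 101 in UNC0638, which did not overlap, with a log2 fold change of 2.86 that limma did not call (adjusted p = 0.457) and DESeq2 did (adjusted p = 0.00151, with a range of 0.00151 to 0.958 over all settings). Nlrp4f had 12.7, 4.08 and 22.1 in KO DMSO and 90.1, 139.8 and 73.3 in KO UNC0638, a log2 fold change of 3.07 (SE 0.53, limma adjusted p = 0.0232). That call was lost with no expression filter (adjusted p = 0.0600), without KO UNC0638 replicate 2 (adjusted p = 0.155), without KO DMSO replicate 1 (0.0609) or replicate 2 (0.0513), and without the replicate 3 libraries of WT (0.0690). In WT Nlrp4f had 17.5, 11.1 and 26.2 in DMSO and 144, 65.4 and 168 in UNC0638 (2.69, limma adjusted p = 0.457), which DESeq2 also called (adjusted p = 0.000410, with a range of 0.000410 to 0.958).

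Nlrp4c had the same order of values and was not called by limma. It had 1.16, 13.5 and 8.74 in WT DMSO and 27.3, 71.9 and 105 in WT UNC0638, and in KO 0 in all DMSO libraries and 6.44, 33.3 and 2.62 in UNC0638 (limma adjusted p = 0.563 in WT and 0.102 in KO). In KO it was at least 4.47-fold higher with UNC0638, or at least 1.43-fold without KO UNC0638 replicate 2. DESeq2 called it in KO (adjusted p = 0.00353, with a range of 0.00353 to 0.362 over all settings) and not in WT (adjusted p = 0.151). Some germ-line genes fell in Dppa4 KO. Sohlh2 had 145, 65.2 and 92.7 in WT DMSO and 0 reads in the KO DMSO libraries (limma adjusted p = 1.68e-05), and Nlrp14 was at least 3.68-fold lower in KO in DMSO (limma adjusted p = 0.00236). Of 6 germ-cell markers 5 were tested, and Ddx4, Dazl and Mael fell in KO under both treatments while Tex14 and Stra8 were not called. Tex14 had 148, 108 and 130.2 in WT DMSO and 279, 213 and 212 in KO DMSO, on the higher side (log2 fold change 0.86, limma adjusted p = 0.20). The 3 calls in DMSO were lost without the replicate 3 libraries of WT (adjusted p = 0.0530, 0.104 and 0.0542 for Ddx4, Dazl and Mael), and in UNC0638 that of Dazl was lost (0.0619). Dazl in DMSO was also lost without WT DMSO replicate 2 (adjusted p = 0.0679) or 3 (0.0726) and without KO DMSO replicate 1 (0.0530). Dppa3 had 38.4, 83.6 and 401 in WT DMSO and 4.89, 7.13 and 3.48 in KO DMSO, and fell by 4.20 on the log2 scale (SE 0.80, limma adjusted p = 0.00667). In UNC0638 it fell by 3.30 (limma adjusted p = 0.0287), a call lost without WT UNC0638 replicate 2 (adjusted p = 0.0846) or 3 (0.143) and without KO UNC0638 replicate 3 (0.0859). Tcl1 rose by 1.36 in KO in DMSO (limma adjusted p = 0.00917), which was lost without WT DMSO replicate 2 (adjusted p = 0.0624) or KO DMSO replicate 1 (0.0545). Over all settings the calls of Dazl and Dppa3 in UNC0638 were lost in 2 and 4, and that of Tcl1 in DMSO in 3. Klf4 rose by 1.01, at the threshold of 2-fold, and lay under it in 6 settings (0.90 without WT DMSO replicate 2).

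**Figure D5:**
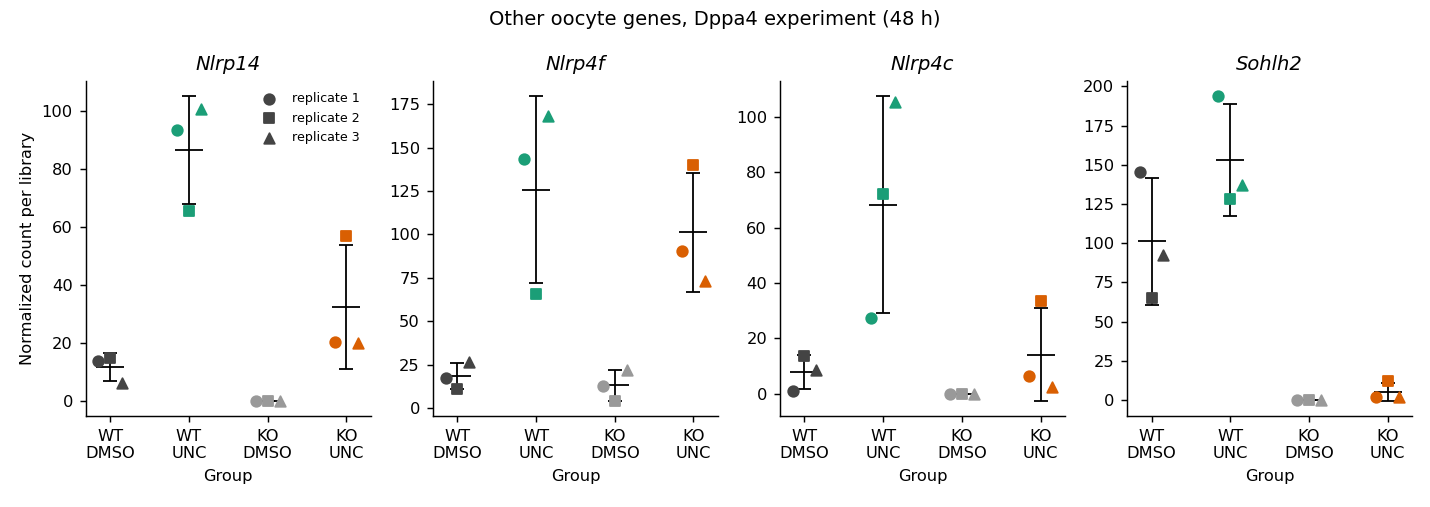
Normalized counts of Nlrp14, Nlrp4f, Nlrp4c and Sohlh2 in the 12 libraries of the Dppa4 experiment; each point is a library and bars give the mean ± SD of 3 libraries. In both genotypes the UNC0638 libraries of Nlrp14, Nlrp4f and Nlrp4c lie above the DMSO libraries, and Sohlh2 has 0 reads in KO DMSO. Nlrp4c in KO UNC0638 replicate 3 (2.62) lies under the KO DMSO floor of 3 reads, a mean of 3.16.

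Neighbouring genes and the most similar expression patterns place the members in their surroundings. The nearest gene to Ooep was Dppa5a, another KH-domain gene, 7931 bases away, with 1777 in sorted mESC and 1408 in 2CLC in DMSO (log2 ratio -0.34) and with 15198 and 9055 in DMSO and dTAG at 7 d (-0.75). On one side of Khdc3 lay Rab27a, a vesicle-transport GTPase, with 275 and 100.4 in mESC and 2CLC (-1.44), a ratio like that of Khdc3, but with 394 and 405 in DMSO and dTAG at 7 d. On its other side lay Rsl24d1, a ribosome-assembly factor, with 1020 and 955 in mESC and 2CLC (-0.10) and a log2 ratio of 0.49 with dTAG at 7 d. Gdf9 lay 191 bases from Uqcrq, a respiratory-chain gene, which had 266 in mESC and 257 in 2CLC. Tle6 lay 58 bases from Tle2, with 8.81 and 9.27, and Padi6 lay 3221 bases from Padi4, with 28.7 and 10.1. Over the 12 libraries of the Dppa4 experiment, the 3 genes whose log2 values were most like those of Khdc3 were Gm20509 (Pearson r = 0.98 as a description), which shares its exons, Pla2g4e (0.92) and Gm16933 (0.91), out of 17258 genes in libraries that also share genotype and treatment.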

How the data were processed

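Libraries were polyA RNA-seq. According to the study's methods, the authors trimmed reads with Trim Galore (0.6.7), aligned them to mm10 with STAR (2.7.10) without introns, so reads over exon junctions could be lost, and with multimapping reads placed at 1 random location, counted genes (GENCODE M25) and repeats with TEcounts at its default strand setting, and normalized with DESeq2 (1.34.0). All deposited values used are a signal: normalized counts, that is counts divided by size factors, given per library for the Dppa4 experiment and as the authors' group means elsewhere. The deposited tables also hold the authors' DESeq2 fold changes, standard errors, statistics, p-values and gene classes, which were not used. Annotation for coordinates and exon lengths was GENCODE M21, and neighbours were the nearest genes in it.

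In the Dppa4 experiment, 100% of values were whole reads (tolerance 0.001) after division by the value of 1 read. Genes passing the filterByExpr filter on those reads were fitted with limma (3.58.1, R 4.3.3; trend) on log2(normalized count + 1) over all 4 groups, with Benjamini-Hochberg adjustment over 17258 genes; fold changes on this scale understate those of low genes. Calls required an adjusted p under 0.05 and an absolute log2 fold change of at least 1. Ratios of group means used a pseudocount of 1 and genes whose 2 means averaged at least 5. Alternatives were edgeR (4.0.16) and DESeq2 (1.42.0) on recovered reads, pseudocounts of 0.5 and 4, other filters, other scalings, a replicate block, and each library left out. The scripts were tested on simulated data.

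Between WT DMSO and WT UNC0638, deviations of same-numbered libraries from their group means had r = 0.335, 0.118 and 0.582. The unlike pair of DMSO replicate 1 and UNC0638 replicate 2 had 0.110. In KO the same-numbered values were 0.278, -0.149 and 0.00788. The labels do not state a pairing, so it is not established in either genotype. No pair of libraries agreed within sampling noise. Intervals and floors cover counting error only.

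The members and lists were chosen with earlier results of these data known. The text names all members, the genes of each list called in the Dppa4 experiment or with the 3 largest ratios in sorted DMSO cells, each member's neighbours, and the 3 genes most like the member with the most reads. Other list genes were named after their values were seen. They were Nlrp4c, Nlrp4f, Nlrp9b, Nlrp14, Ybx2 and Sohlh2 in the degron experiments, and Kit, Nanog, Tdgf1, Stra8, Col1a2, Postn, Pdgfrb and Dcn.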

Additional observations from a re-analysis of the deposited data

How the results depend on the processing

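No paired analysis was possible because the time course, washout and sorting tables hold only group means. In the Dppa4 experiment the fit with the replicate number as a block called 0 of 4 members in every contrast, as did the fit without it, and it changed no other call of a member.

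Of 168 counts of members recomputed under an alternative, 148 stayed within 1.5 times and 20 moved. A count of 0 under both settings entered as unchanged. In the Dppa4 experiment limma called 0 members in each contrast, and no gene at all with UNC0638 in WT or for the interaction. Most of the counts there could thus hardly move, and the 148 is no measure of stability. DESeq2 called 1 member, Khdc3, in Dppa4 KO against WT in UNC0638. The other moved counts were those of ratios of group means. Lowering the required average of means to 1 gave 1 of 8 members past 2-fold with dTAG at 24 h, 3 of 8 at 7 d and 2 of 9 at 15 d. It gave 1 of 8 in sorted mESC, 2 of 8 in 2CLC, 3 of 8 between the DMSO times, and 1 of 8 and 2 of 9 for Recovery against DMSO and dTAG. For 2CLC against mESC it gave 4 of 7 in DMSO and 3 of 8 in dTAG, adding Zp3 (1.53 and 1.54). Genes past 2-fold higher and lower over all genes rose too, in every comparison. They went from 740 and 459 to 1403 and 913 at 24 h. At 7 d they went from 1082 and 925 to 1896 and 1449, and at 15 d from 1070 and 178 to 1885 and 398. With dTAG in 2CLC they went from 1198 and 698 to 2045 and 1831. For 2CLC against mESC in DMSO they went from 3284 and 1811 to 5339 and 2442. Shares over all genes at this lower level are not given, so these member counts are not set against the background. With no filter the counts of members past 2-fold were the same except 3 at 15 d. The added genes have pairs of means that average under 5. A pseudocount of 4 gave 0 for the DMSO times and 0 for 2CLC against mESC in dTAG, and equal gene totals gave 0 for dTAG in 2CLC.

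No called member reversed. Of uncalled members, Tle6 with UNC0638 in KO was 0.0079 by edgeR and 0.011 by DESeq2, and Zp3 in KO against WT in UNC0638 was 0.21 by both and 0.19 without the replicate 3 libraries of WT, an alternative chosen after seeing the data. Leaving out 1 library in turn gave log2 fold changes for Tle6 from -0.63 to 0.023 (UNC0638 in WT), -0.44 to 0.41 (UNC0638 in KO), -0.21 to 0.39 (KO in DMSO), -0.033 to 0.83 (KO in UNC0638) and -0.15 to 0.71 (difference). For Zp3 they ran from -1.08 to 0.80, -1.20 to 0.28, -0.87 to 0.74 and -0.46 to 1.42 in the last 4 of these, for Khdc3 from -0.38 to 0.22 (UNC0638 in KO) and -0.061 to 0.79 (difference), and for Ooep from -0.078 to 0.35 (difference). The cause was not tested.

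Depth limits the 6 members with 44 reads or fewer over the Dppa4 libraries, for which no difference was detectable. The degron experiments give no spread, so no difference there is shown to exceed it.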
